A study of Mus musculus with 4 samples.

Results

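The genes described here are 10 components of the Notch pathway: the receptors Notch1, Notch2, Notch3 and Notch4, the ligands Dll1, Jag1 and Jag2, the target genes Hes1 and Hey1, and the Notch antagonist Numb. They were chosen by name, as the spots other than controls that carry 1 of these gene names on an Agilent mouse expression array. The 10 genes were represented by 16 probes in 34 spots, out of 27670 gene names, 41174 probes and 43379 spots. Total RNA of 4T1-A and 4T1-S, which derive from the mouse mammary tumour line 4T1, was hybridised in 1 colour to 4 arrays, with 2 arrays of each sub-line. 4T1 arose from a mammary tumour of a BALB/c mouse, and 4T1-S is called highly immunogenic in the series' title. The labels give the parental line of every array but name no treatment, and nothing in them marks replicate arrays as separate cultures. The p-values therefore reflect array-to-array spread that may be purely technical. Each sub-line stands for 1 derived line, and on the 1 slide used, 4T1-A lay at neighbouring positions and 4T1-S at the others, so slide position and sub-line cannot be told apart.

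Notch signalling passes between touching cells. A ligand of the Delta or Jagged family on 1 cell binds a Notch receptor on its neighbour, and endocytosis of the ligand, driven by ubiquitin ligases of the Mind bomb and Neuralized families, pulls on the receptor. The receptor is then cut by an ADAM protease and by gamma-secretase, and its freed intracellular domain joins the DNA-binding protein Rbpj and Mastermind-like co-activators in the nucleus, where it turns on repressors of the Hes and Hey families. In the mammary gland the pathway takes part in the choice between luminal and basal fates, and Notch4 was first known as Int3, a site where mouse mammary tumour virus integrates and produces an active receptor.

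Between 54.9 and 59.2 percent of the spots of an array were well above background, and replicate arrays had a Pearson r of 0.992 (4T1-A) and 0.993 (4T1-S) over genes, which are not independent. All 5 epithelial markers (Krt8, Krt18, Krt19, Epcam and Cdh1) were well above background on every array, and 3 of them were called lower in 4T1-S, Epcam by a log2 difference of -3.78, Krt19 by -2.61 and Cdh1 by -1.11 (limma, adjusted p = 5.5e-05, 0.00163 and 0.0130). Of the 6 leukocyte markers 4 were well above background on every array. The summed relative intensity of all 6 was 0.900 and 0.969 in 4T1-A against 0.822 and 0.826 in 4T1-S. Ptprc, which defines leukocytes, was above background on 1 array of 4T1-S and on no array of 4T1-A. Of 4 fibroblast markers only Pdgfra was above background on all arrays, and their sum was higher in 4T1-S (0.948 and 0.955) than in 4T1-A (0.447 and 0.672). Most of that sum was Pdgfra, at 0.324 and 0.529 in 4T1-A against 0.780 and 0.758 in 4T1-S. Whether any other cell type was present, or whether the tumour cells themselves made these transcripts, was not tested.

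Values are relative intensities, meaning the processed intensity of a probe divided by the 75th percentile of its array. A gene was tested with its brightest probe, provided that 1 or both sub-lines had it well above background on each of their arrays, and it is called changed at a Benjamini-Hochberg adjusted p under 0.05 in limma's fit over all genes. Of the 10 genes, 9 passed this filter on low values and Notch3 did not. In 4T1-S 1 of the 9 was higher (Notch4), 1 was lower (Dll1) and 7 did not pass the test. Over the 16155 genes tested, 7.02 percent were called, 4.00 percent as higher and 3.01 percent as lower. The median log2 difference, 4T1-S minus 4T1-A, was -0.097 over the 9 genes and 0.13 over all genes tested. The number of calls over all genes depended on which array was left out, and changed least without 4T1-A replicate 1. It was 647 higher and 487 lower with all 4 arrays, 1069 and 761 without 4T1-A replicate 2, 128 and 231 when 4T1-S replicate 1 was left out, and 85 and 225 for 4T1-S replicate 2. In each of these fits 1 sub-line is a single array, assumed to vary like the other sub-line. Without a 4T1-A array every gene named here had the same standard error, 0.317, so a call made there is only a threshold on the size of the difference. With scaling to the median of each array the split became 189 higher and 887 lower and the median difference of all genes turned to -0.16, and with quantile normalization the split was 266 and 465.

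**Figure D1:**
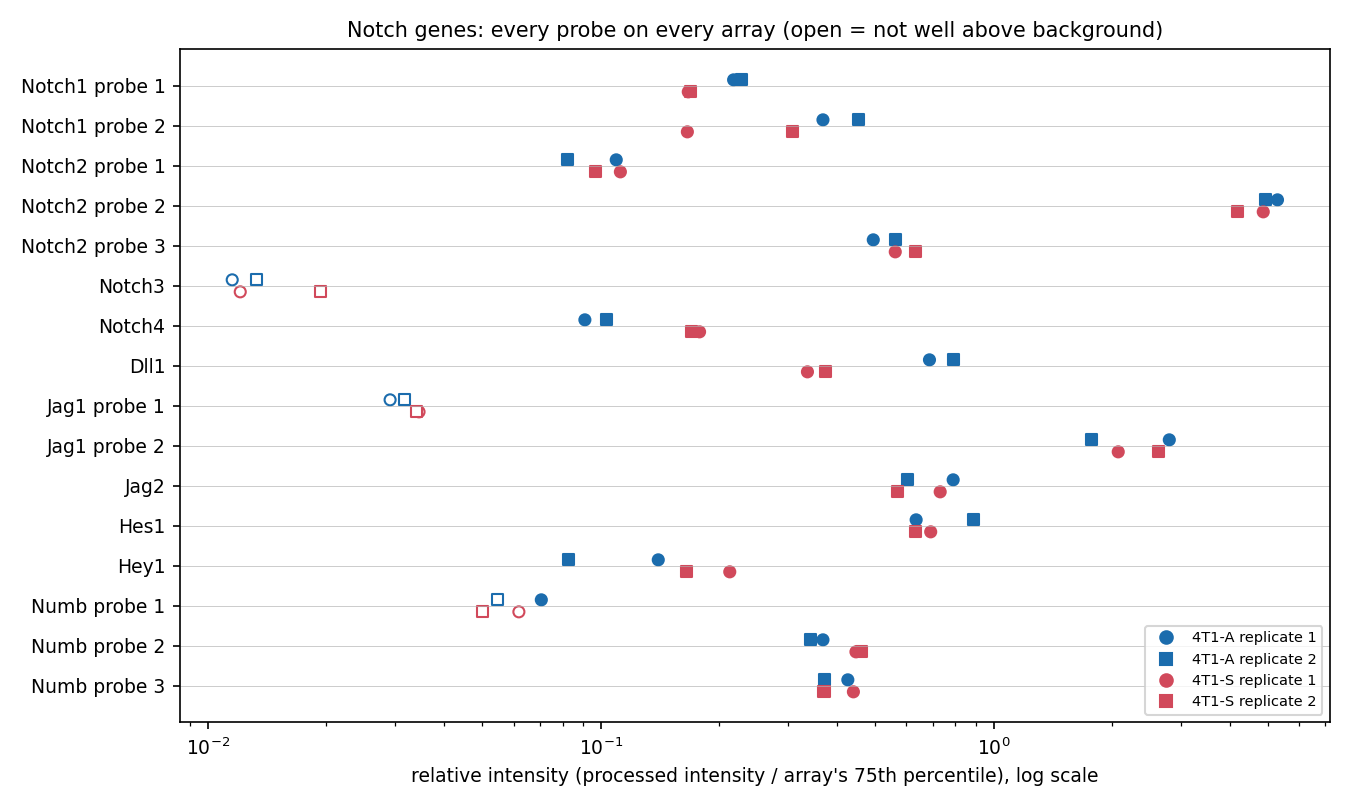
Relative intensity (log scale) of each of the 16 probes of the 10 Notch genes on each of the 4 arrays, with 4T1-A in blue, 4T1-S in red, circles for replicate 1, squares for replicate 2 and open symbols for values not well above background. Dll1 is separated downwards and Notch4 upwards in 4T1-S, Jag2 and Hes1 overlap between the sub-lines, and Notch3 stays below 0.02 on all arrays.

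Among the ligands, Dll1 was lower in 4T1-S and the Jagged genes did not pass the test. Dll1 encodes Delta-like 1, a ligand that activates Notch receptors of neighbouring cells and, within the same cell, can block them. The relative intensity of its probe was 0.687 and 0.793 on the 4T1-A arrays and 0.336 and 0.374 on the 4T1-S arrays. Both values of 4T1-A thus lay above both of 4T1-S, with a wide gap between the groups compared with the spread inside them. The difference was -1.06 ± 0.19 on the log2 scale (standard error, n = 2 in each group; 95% interval -1.50 to -0.61), a 2.08-fold fall, with an adjusted p of 0.0196 in limma's fit. Fewer cells with the transcript and less transcript per cell cannot be told apart in RNA from whole cultures. Of all genes tested, 4.64 percent had a larger absolute difference. Dll1 no longer passed when 4T1-S replicate 1 (-0.98, adjusted p = 0.127) or 4T1-S replicate 2 (-1.14, 0.108) was left out, or when genes below background were tested too (0.0868).

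The Dll1 probe was printed in 10 spots per array, which gives a technical check of each value. Its spots ranged from 0.629 to 0.809 and from 0.731 to 0.854 on the 4T1-A arrays, and from 0.305 to 0.371 and from 0.347 to 0.411 on the 4T1-S arrays. The dimmest of the 4T1-A spots was brighter than the brightest of the 4T1-S spots. The coefficient of variation over the 10 spots lay between 5.21 and 7.85 percent. The spots are repeated readings of 1 hybridisation and are not replicates of a sub-line.

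**Figure D2:**
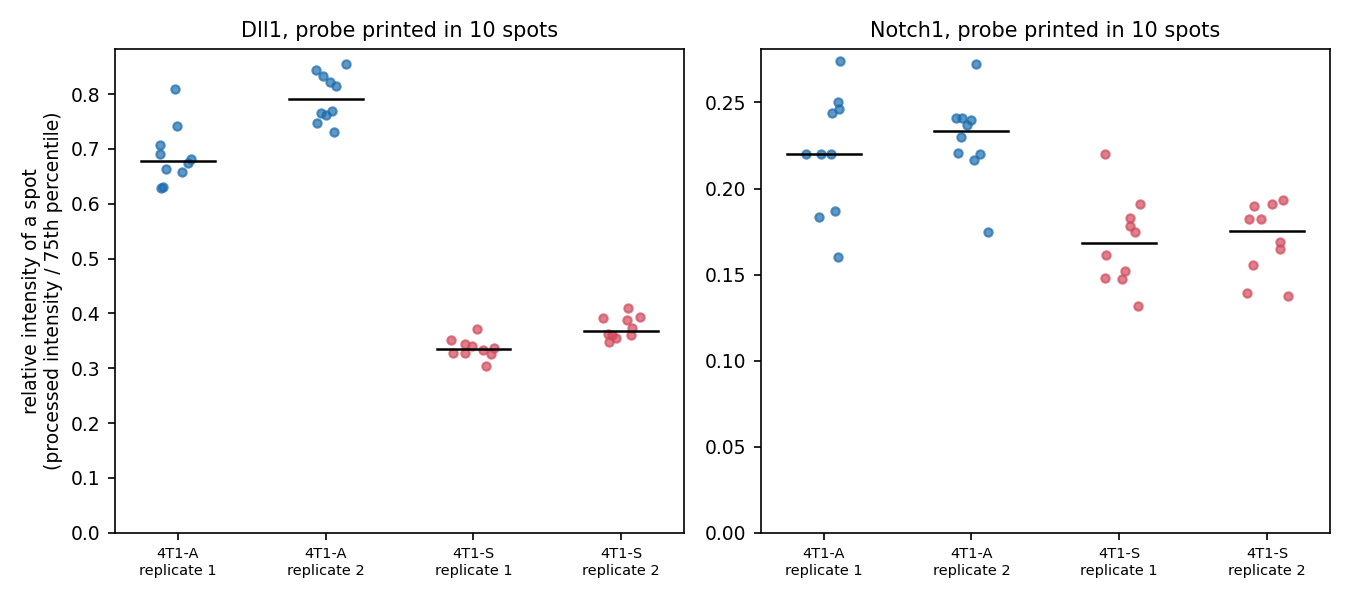
Relative intensity of each of the 10 spots of the Dll1 probe (left) and of the Notch1 probe that is printed 10 times (right) on the 4 arrays, with a bar at each median; horizontal scatter within an array has no meaning. The Dll1 spots of 4T1-A (lowest 0.629) lie apart from those of 4T1-S (highest 0.411), whereas the Notch1 spots of the sub-lines overlap.

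Jag1 and Jag2 encode the Jagged ligands. The brighter Jag1 probe read 2.80 and 1.78 in 4T1-A against 2.08 and 2.63 in 4T1-S. The 4T1-S values fell between those of 4T1-A, and the difference was 0.066 ± 0.26 (95% interval -0.54 to 0.67, adjusted p = 0.893). A second Jag1 probe did not rise well above background on any array, at 0.0291 and 0.0317 in 4T1-A against 0.0345 and 0.0340 in 4T1-S, and gives no fold. Jag2 read 0.789 and 0.605 in 4T1-A against 0.731 and 0.571 in 4T1-S, with overlapping groups and a difference of -0.097 ± 0.22 (95% interval -0.62 to 0.42, adjusted p = 0.809). For both genes the interval leaves out a fall or rise of 2-fold, but smaller differences of either sign remain within it, and the sign itself turned with single arrays.

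Of the receptors, Notch4 was higher in 4T1-S and the others did not pass the test or could not be measured. Notch4, the receptor best known from blood vessels and from its activation by the mammary tumour virus, read 0.0911 and 0.104 in 4T1-A against 0.178 and 0.170 in 4T1-S. Both 4T1-S values lay above both of 4T1-A and all 4 were well above background. The 4T1-A values were low, not far above the medians of the authors' deposited values for those arrays, 0.078 and 0.076. Over all genes the median difference was 0.099 with the filter on all 4 arrays and 0.19 with no filter on background. The part of this shift at low intensity in the result for Notch4 was not tested. The Notch4 difference was 0.84 ± 0.19 (95% interval 0.41 to 1.28), a 1.79-fold rise with an adjusted p of 0.0394 over all genes. When every probe of the array was tested on its own, the adjusted p was 0.0549. In that fit 0 of the 13 member probes tested were called higher and 1 (Dll1, adjusted p = 0.0286) lower, against 2.21 and 2.37 percent of all 23669 probes tested, or 4.58 percent in either direction. The call over genes was also lost without 4T1-A replicate 1 (0.75, adjusted p = 0.159), when either 4T1-S replicate 1 (0.81, 0.171) or replicate 2 (0.88, 0.162) was left out, with quantile normalization (0.71, 0.0872), with scaling to the median (0.55, 0.131), with no filter on background (0.106) and with normexp background correction (0.47, 0.103), which also lowered the difference itself by more than 1.5 times. The endothelial markers Pecam1, Cdh5, Kdr and Tie1 were not well above background on any array. Their summed relative intensity, 0.0643 and 0.0716 in 4T1-A against 0.115 and 0.106 in 4T1-S, therefore gives no fold.

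Notch1, the receptor with the broadest roles in epithelial and lymphoid fate, was measured by 2 probes. The brighter read 0.368 and 0.453 in 4T1-A against 0.166 and 0.307 in 4T1-S. The groups did not overlap, but the 2 arrays of 4T1-S stood as far apart as the sub-lines, and the difference of -0.85 ± 0.30 (95% interval -1.55 to -0.16) did not pass (adjusted p = 0.113). The other probe, printed in 10 spots, gave 0.218 and 0.228 in 4T1-A against 0.167 and 0.169 in 4T1-S, a difference of -0.41 ± 0.19 (95% interval -0.84 to 0.029) with an adjusted p of 0.222 over all probes. Both probes were lower in both 4T1-S arrays, the second by about the same amount on each, although its single spots overlapped between the sub-lines. With 1 array left to 4T1-A, without its replicate 1, the difference of the brighter probe was -1.01, with an adjusted p of 0.0299 over genes and 0.0762 over all probes. Over genes it was -0.41 with normexp (adjusted p = 0.174), -0.41 when 4T1-S replicate 1 was left out (0.392) and -1.30 when replicate 2 was (0.0861).

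Notch2, a receptor that is widespread in epithelia, was measured by 3 probes, all above background on every array. The brightest read 5.28 and 4.93 in 4T1-A against 4.86 and 4.19 in 4T1-S, a difference of -0.18 ± 0.19 (95% interval -0.62 to 0.26, adjusted p = 0.579). Another read 0.494 and 0.563 in 4T1-A against 0.562 and 0.632 in 4T1-S, and differed by 0.18 ± 0.20 (adjusted p = 0.617 over all probes). The dimmest read 0.110 and 0.0822 in 4T1-A against 0.112 and 0.0969 in 4T1-S, and differed by 0.14 ± 0.22 (adjusted p = 0.741). The 3 probes thus gave small differences of both signs, none beyond the spread between arrays. Notch3, a receptor of pericytes and smooth muscle that is also found in mammary luminal progenitors, read 0.0115 and 0.0133 in 4T1-A against 0.0121 and 0.0194 in 4T1-S. Its single probe did not exceed background clearly on any array, so no difference could be measured.

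Hes1 and Hey1 encode repressors of the basic helix-loop-helix class that active Notch receptors turn on. Hes1 read 0.635 and 0.887 in 4T1-A against 0.692 and 0.633 in 4T1-S. The groups overlapped, and the difference was -0.18 ± 0.22 (95% interval -0.69 to 0.33, adjusted p = 0.628). Hey1, about as dim as Notch4, read 0.140 and 0.0829 in 4T1-A against 0.213 and 0.166 in 4T1-S. Its 4T1-S values lay above those of 4T1-A, but the 4T1-A arrays differed from each other almost as much as the sub-lines did, and the difference of 0.80 ± 0.28 (95% interval 0.15 to 1.45) did not pass (adjusted p = 0.113). The difference rested on which 4T1-A array was used: with 1 array in that group it was 1.18 without replicate 1 (adjusted p = 0.00573) and 0.42 without replicate 2 (0.434), both with the standard error that all genes shared. With normexp it was 0.47 (adjusted p = 0.162) and with scaling to the median 0.51 (0.278). Whether Hes1 and Hey1 differed from each other in their change was not tested.

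Numb encodes an endocytic adaptor that removes Notch receptors from the membrane and is handed to 1 daughter in asymmetric divisions. Its brightest probe read 0.368 and 0.342 in 4T1-A against 0.446 and 0.462 in 4T1-S. The groups did not overlap, yet the difference of 0.36 ± 0.18 (95% interval -0.067 to 0.78) did not pass (adjusted p = 0.240). It shrank to 0.065 when arrays were scaled to their median (adjusted p = 0.852). With all Numb probes averaged, including the dim probe that was not tested, it was 0.073 (adjusted p = 0.815). A second probe of nearly equal brightness read 0.426 and 0.371 in 4T1-A against 0.440 and 0.370 in 4T1-S, with overlapping groups and a difference of 0.022 ± 0.20 (adjusted p = 0.960 over all probes). The third was above background on 1 of the 4 arrays and was not tested, at 0.0706 and 0.0545 in 4T1-A against 0.0619 and 0.0499 in 4T1-S.

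**Figure D3:**
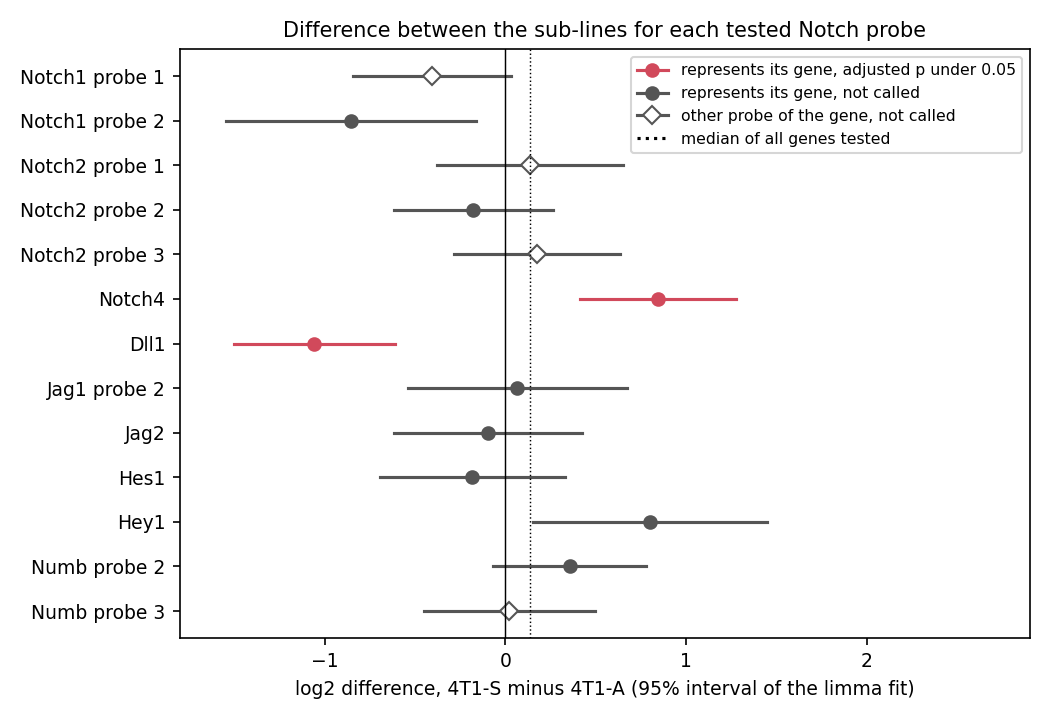
Log2 difference between the sub-lines (4T1-S minus 4T1-A) for the 13 tested probes of the Notch genes, with 95% intervals of limma's fit over genes (filled circles, the probe that represents its gene) or over probes (open diamonds), red where the adjusted p was under 0.05. Dll1 at -1.06 and Notch4 at 0.84 are called, the intervals of Notch1 probe 2 and of Hey1 leave out 0 without passing after adjustment, and those of the remaining probes include 0.

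Of the 9 genes tested, by their brightest probe, 3 were higher on both 4T1-S arrays than on either 4T1-A array (Notch4, Hey1 and Numb). Another 3 were lower on both (Dll1, Notch1 and Notch2) and 3 overlapped (Jag1, Jag2 and Hes1). The other probes of Numb and of Notch2 overlapped between the sub-lines. Over all genes tested, groups did not overlap for 59.1 percent, with 40.6 percent higher and 18.5 percent lower in 4T1-S, so the count of 6 in 9 is near the background. At an unadjusted p under 0.05 stood 4 of the 9 genes, 2 higher (Notch4 and Hey1) and 2 lower (Dll1 and Notch1), against 28.7 percent of all genes tested, 20.5 percent higher and 8.20 percent lower.

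The promoters of Dll1 and Notch4 are shown because these were the members called. The sequences are those of RefSeq for the reference strain C57BL/6J (GRCm38.p6), each 300 bases long with 250 before the transcription start, read 5′ to 3′ on the strand of the gene. Dll1 has 2 annotated starts, at chr17:15376883-15377182 and chr17:15375774-15376073 on the minus strand, and Notch4 has 1, at chr17:34564045-34564344 on the plus strand. Capitals mark motifs of the pathway's own DNA-binding proteins, searched on both strands: TGGGAA, the core bound by Rbpj, CACNAG, the N box, and CACGCG, the class C site, both bound by Hes proteins, and CACGTG, the E box, which Hey proteins also bind. The motifs do not overlap in the sequences shown.
Dll1, upstream start: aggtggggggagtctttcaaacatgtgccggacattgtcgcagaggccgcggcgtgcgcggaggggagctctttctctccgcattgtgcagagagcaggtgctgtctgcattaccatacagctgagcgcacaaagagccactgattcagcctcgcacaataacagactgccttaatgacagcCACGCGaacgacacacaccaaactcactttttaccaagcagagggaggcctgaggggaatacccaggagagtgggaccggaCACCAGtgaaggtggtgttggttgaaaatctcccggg
Dll1, downstream start: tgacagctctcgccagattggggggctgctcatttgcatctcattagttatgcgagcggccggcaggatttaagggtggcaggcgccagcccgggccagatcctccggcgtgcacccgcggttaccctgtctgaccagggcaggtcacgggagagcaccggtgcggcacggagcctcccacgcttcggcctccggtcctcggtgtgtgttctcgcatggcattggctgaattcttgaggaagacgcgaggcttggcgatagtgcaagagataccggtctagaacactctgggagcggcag
Notch4: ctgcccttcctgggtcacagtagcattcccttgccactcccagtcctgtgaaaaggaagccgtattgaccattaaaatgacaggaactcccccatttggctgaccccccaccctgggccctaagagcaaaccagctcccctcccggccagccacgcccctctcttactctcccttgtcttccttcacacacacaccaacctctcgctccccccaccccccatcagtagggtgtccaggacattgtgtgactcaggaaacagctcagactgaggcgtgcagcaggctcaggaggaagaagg
The upstream Dll1 window held a class C site that begins 68 bases before the start and an N box in the first 50 transcribed bases, whereas the downstream window and that of Notch4 held none of the 4 motifs. Of the 10 members, 8 were matched in the promoter table, with 11 windows. Of these windows, 0 held the Rbpj core, which 25.6 percent of all 32851 windows hold, 5 held an N box, against 42.5 percent, 4 held a class C site, against 9.27 percent, and 0 held an E box, against 7.15 percent. A match of letters is not a binding site, and windows without a match say nothing of sites elsewhere.

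The rest of the pathway was described with a list of 59 further genes, of which 58 were on the array and 49 were tested. In 4T1-S 4 were higher, 0 were lower and 45 did not pass, against 4.00 percent higher and 3.01 percent lower over all genes tested, with a median difference of 0.14 against 0.13 over all genes tested. All 4 of the higher genes belonged to the 6 genes of the Mind bomb and Neuralized families. The list was drawn up with earlier results of these data known, so this grouping is a description and not a test. Without 4T1-S replicate 1 or replicate 2 the count of higher genes was 0, without 4T1-A replicate 1 it was 1 and without 4T1-A replicate 2 it was 6. It was 2 with normexp, 1 with scaling to the median and 0 with no filter on background.

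Neurl3, a Neuralized-like ubiquitin ligase described as inducible in lung and not best known as a regulator of Notch ligands, was the largest of these changes. Its brighter probe read 0.637 and 0.902 in 4T1-A against 1.93 and 2.17 in 4T1-S, with no overlap and a difference of 1.43 ± 0.22 (95% interval 0.91 to 1.96, 2.70-fold, adjusted p = 0.0104). Its other probe read 0.447 and 0.453 in 4T1-A against 1.43 and 1.23 in 4T1-S and gave 1.56 ± 0.19 (adjusted p = 0.00466 over all probes). Both probes rose, but the gene did not pass when 4T1-S replicate 1 (1.52, adjusted p = 0.0665) or 4T1-S replicate 2 (1.35, 0.109) was left out, or when genes below background were tested too (0.0845).

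Mib2, a Mind bomb ligase that ubiquitinates Delta and Jagged ligands, read 0.490 and 0.533 in 4T1-A against 0.951 and 1.03 in 4T1-S. It rose by 0.95 ± 0.19 (1.93-fold, adjusted p = 0.0256). Neurl1a, the mouse counterpart of fly neuralized, read 0.670 and 0.649 in 4T1-A against 1.16 and 1.32 in 4T1-S and rose by 0.91 ± 0.19 (1.88-fold, adjusted p = 0.0304). A dimmer Neurl1a probe gave 0.61 ± 0.21 and did not pass (adjusted p = 0.136 over all probes). Neurl2, known as a substrate adaptor of a muscle ubiquitin ligase rather than as a Notch regulator, read 1.38 and 1.84 in 4T1-A against 3.16 and 2.98 in 4T1-S and rose by 0.95 ± 0.21 (1.93-fold, adjusted p = 0.0401), but its only probe did not pass over all probes (0.0554). In each of these 3 genes both 4T1-S values were higher than both 4T1-A values.

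The other 2 genes of the group did not pass. Mib1, the main ligase for Notch ligands in mammals, read 7.79 and 8.00 in 4T1-A against 7.62 and 8.54 in 4T1-S and differed by 0.032 ± 0.19 (95% interval -0.40 to 0.46, adjusted p = 0.929). Neurl1b, a Neuralized ligase of Delta ligands, differed by 0.30 ± 0.19 (adjusted p = 0.329). The calls of Mib2, Neurl1a and Neurl2 were lost without 4T1-A replicate 1 (adjusted p = 0.0697, 0.0513 and 0.171), when either 4T1-S replicate 1 (0.115, 0.113 and 0.174) or replicate 2 (0.155, 0.168 and 0.164) was left out, with scaling to the median (0.0940, 0.111 and 0.120) and with no filter on background (0.0911, 0.0962 and 0.120). Normexp also ended those of Neurl1a (0.0552) and Neurl2 (0.0533), and quantile normalization that of Neurl2 (0.0646).

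The promoter of Neurl3, the gene of the list with the largest change, is shown from the same source (GRCm38.p6, chr1:36273376-36273675, minus strand), with its N boxes in capitals.
Neurl3: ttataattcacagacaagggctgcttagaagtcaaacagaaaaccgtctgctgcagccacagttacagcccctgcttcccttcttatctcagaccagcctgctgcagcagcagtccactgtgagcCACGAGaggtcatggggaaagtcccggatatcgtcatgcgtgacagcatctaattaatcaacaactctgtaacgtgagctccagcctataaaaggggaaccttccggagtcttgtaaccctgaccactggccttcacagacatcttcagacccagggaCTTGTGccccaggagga
It held 2 N boxes, 125 bases before and in the first 50 bases after the start, and none of the other 3 motifs.

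**Figure D4:**
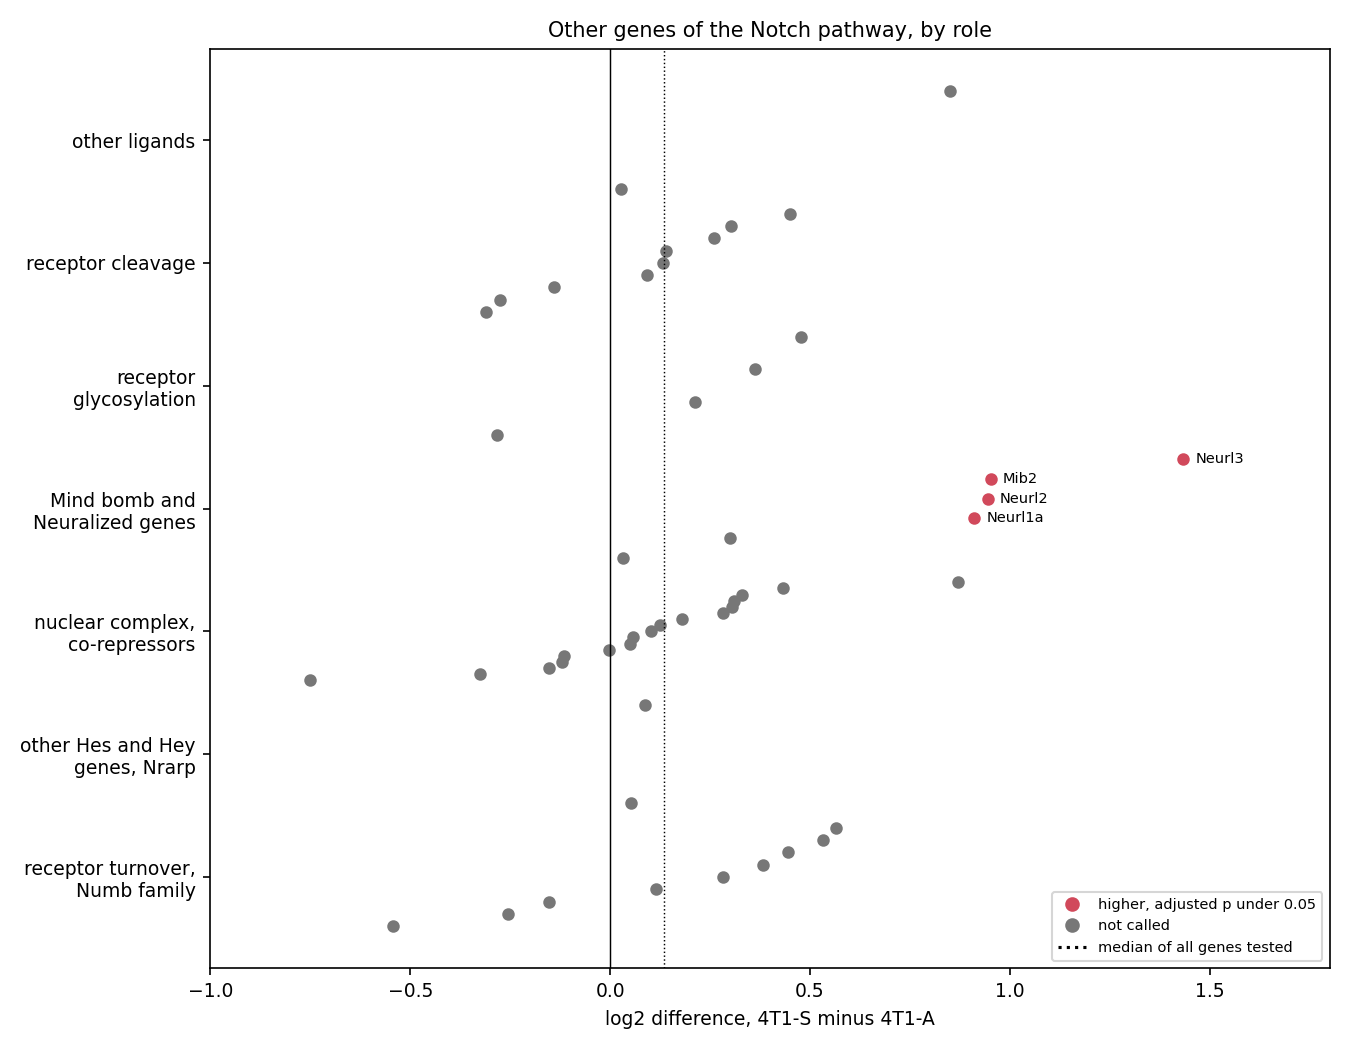
Log2 difference (4T1-S minus 4T1-A) of the 49 tested genes of the Notch pathway other than the 10 members, grouped by role, with called genes in red and the median of all genes tested, 0.13, as a dotted line. The 4 called genes lie between 0.91 and 1.43 and all belong to the Mind bomb and Neuralized group, and the genes of the other groups lie between -0.75 and 0.87 without passing the test.

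In the other role groups 0 genes were called by limma's fit. Of the ligands outside the members, 2 of 5 were tested, and Dlk2, a Delta-like protein without the receptor-activating domain, differed by 0.85 ± 0.22 (adjusted p = 0.0608). The 9 tested genes of receptor cleavage had a median difference of 0.13. Among 4 tested genes of receptor glycosylation the largest difference was that of the fringe gene Rfng (0.48 ± 0.28, adjusted p = 0.300). Among 17 tested nuclear genes it was that of the co-repressor Tle2 (0.87 ± 0.25, adjusted p = 0.0747). Of 6 further targets, 2 were tested: Hes6, a relative of Hes1 that antagonises it, differed by 0.088 ± 0.20 (adjusted p = 0.802), and Nrarp, a feedback inhibitor induced by Notch, by 0.052 ± 0.18 (95% interval -0.37 to 0.48, adjusted p = 0.878). Hes5, Hes7, Hey2 and Heyl were not well above background on any array. Among 9 tested genes of receptor turnover the largest difference was that of Dtx4, a Deltex ligase (0.57 ± 0.28, adjusted p = 0.224). Another Dtx4 probe of similar brightness gave 0.62 ± 0.20 and did not pass (adjusted p = 0.114 over all probes). The dimmest of its 3 probes gave 1.30 ± 0.28 (adjusted p = 0.0470 over all probes). That probe read 0.179 and 0.307 in 4T1-A against 0.528 and 0.634 in 4T1-S. Of 13 alternatives, Dlk2 was called in 3 and Tle2 in 2. Dlk2 passed with an intensity trend and robust fitting (adjusted p = 0.0462). With scaling to the median the differences were 0.56 for Dlk2 (adjusted p = 0.206) and 0.58 for Tle2 (0.231), and neither passed. Leaving out 1 array gave 0.60 to 1.10 for Dlk2 and 0.60 to 1.15 for Tle2.

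Rbpj, through which all the receptors act, was named after its values were seen. It read 5.33 and 6.31 in 4T1-A against 3.80 and 3.12 in 4T1-S, with no overlap, and differed by -0.75 ± 0.20 (95% interval -1.22 to -0.28), which did not pass (adjusted p = 0.0664). With scaling to the median, which turned the median difference of all genes to -0.16, Rbpj was called lower (-1.04, adjusted p = 0.0267). With normexp it did not pass (-0.68, adjusted p = 0.0963), and it was called in 2 of 13 alternatives. Leaving out 1 array gave -0.89 to -0.61.

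The genes whose centred values over the 4 arrays lay nearest to those of Dll1, the member with the largest difference, were Pstpip1, at a root mean square distance of 0.020 on the log2 scale, Ramp3, at 0.037, and the transcript BI662359, at 0.053, out of 16155 genes tested. Their differences between the sub-lines, -1.03, -1.03 and -1.08, follow from the way they were picked. The likeness rests on 4 arrays.

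**Figure D5:**
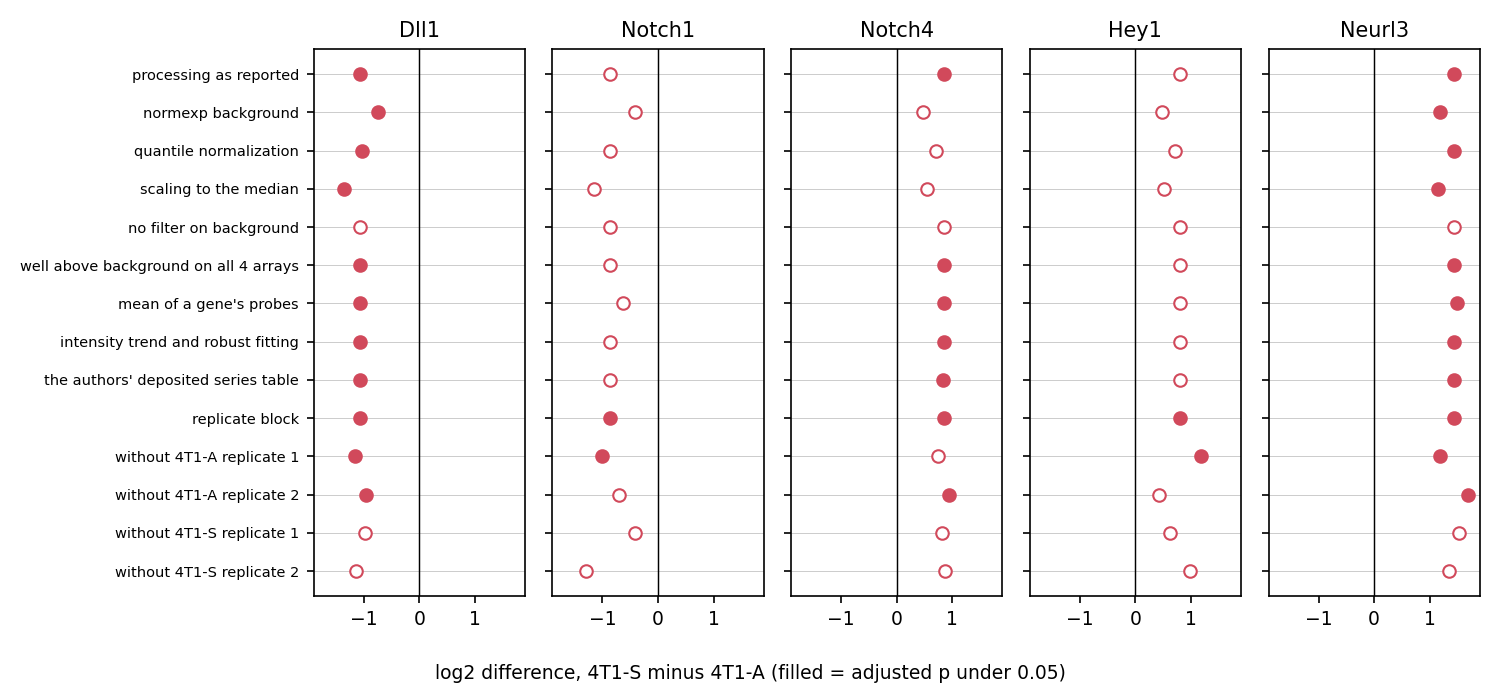
Log2 difference (4T1-S minus 4T1-A) of Dll1, Notch1, Notch4, Hey1 and Neurl3 with the processing as reported and under 13 alternatives, filled where the adjusted p was under 0.05. The sign of each of the 5 genes is the same in every row, while the calls change: Dll1 and Neurl3 are called in 10 of the 13 alternatives, Notch4 in 6, and Notch1 and Hey1 in 2.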

How the data were processed

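RNA of 4 samples was measured, 2 of 4T1-A and 2 of 4T1-S. The authors extracted spot intensity with Agilent Feature Extraction 9.1 (named in the submitters' processing notes), which, per the file headers, subtracted background, detrended the signal and set surrogates for low values. A genome build is not given in the sources used here. The series table deposited by the authors holds a linear ratio, which was found from the values to be that intensity over the array's 75th percentile. Its column medians are 0.078, 0.076, 0.098 and 0.091.

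Here log2 intensity minus the log2 75th percentile was used, without spots flagged as outliers (5 to 9 per array), with spots of a probe averaged. The file of 4T1-A replicate 1 holds rounded intensities and 47 altered gene names, so names came from 4T1-S replicate 2. Probes were named by accession (22951), symbol (9768) or the file (8455) with a RefSeq table of GRCm38.p6. A probe counted as above background where 50 percent or more of its spots were. Genes, by their brightest probe, and separately all probes, were fitted with limma 3.58.1 in R 4.3.3 (2-sided, residual degrees of freedom 2, prior 5.73). The number of arrays limits the precision. The procedure was tested on simulated data with independent noise on each array. That test checked the recovery of planted differences and not the rate of false calls.

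The members, the pathway list and the markers were chosen with earlier results of these data known. The genes named are all members, every called gene of the list or else the largest difference per role group, and the 3 nearest in pattern to the member with the largest difference. Rbpj, Nrarp, Mib1 and Neurl1b, and the listed genes without signal, were named outside this rule. The gene named by this rule for receptor cleavage is not reported here. No list was tested as a set. Alternatives changed the background correction, normalization, background filter, choice of probe, variance model, source table, replicate block and arrays used.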

Additional observations from a re-analysis of the deposited data

How the results depend on the processing

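Dll1 kept its direction in all 13 alternatives (-1.35 to -0.73), as did Notch4 (0.47 to 0.94), Notch1 (-1.30 to -0.41), Hey1 (0.42 to 1.18), Numb (0.065 to 0.41) and Neurl3 (1.14 to 1.68). Where calls moved the cause was not tested, other than that fewer arrays or a different set of genes enter a fit. Of genes called higher and lower, normexp gave 231 and 286, quantile normalization 266 higher, scaling to the median 189 and 887, no filter on background 97 and 174, and the filter on all 4 arrays 306 and 311. Of probes the same settings gave 248 and 294, 310 higher, 224 and 1162, 96 and 206, and 272 and 312, against 523 and 562 as reported. Of the members, 0 were called higher with normexp, quantile normalization, scaling to the median and no filter, and 0 lower with no filter. Of the other pathway genes, 2 were called higher with normexp, 0 when genes below background were tested too, and scaling to the median gave 1 in each direction.

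Leaving out 1 array gave between 85 and 1069 genes higher and 225 to 761 lower, 141 to 1218 probes higher and 309 to 1074 lower, 0 to 1 members higher and 0 to 2 lower, and 0 to 6 other pathway genes higher. Signs turned only where differences were within the spread between arrays. Jag1 ranged from -0.26 to 0.39 without 1 array and was -0.043 with normexp and -0.22 with scaling to the median. Jag2 ranged from -0.29 to 0.095 and Hes1 from -0.42 to 0.058. Notch2 was 0.045 with the mean of its probes. Its dimmest probe was -0.11 with quantile normalization, -0.15 with scaling to the median and -0.071 to 0.34 without 1 array, and its middle probe -0.11 with scaling to the median. The second Numb probe was -0.27 with scaling to the median and -0.10 to 0.15 without 1 array.

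The replicate numbers are not known to pair arrays. Deviations of same-numbered arrays correlated at 0.42 over genes. With the replicate number as a block the calls were 2522 genes higher and 1167 lower, 3008 probes higher and 1664 lower, 2 members higher (Notch4 and Hey1) and 2 lower (Dll1 and Notch1), and 8 other pathway genes higher (Mib2, Neurl1a, Neurl2, Neurl3, Dlk2, Dtx4, Numbl and Tle2) and 1 lower (Rbpj, adjusted p = 0.0281). A block for slide or scan could not be fitted, since all arrays share 1 slide. Signals near background, as for Notch3 and 1 Jag1 probe, set the limit of what could be compared.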
